A study of Mus musculus with 2 samples.

Results

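Collagens, laminins and the enzymes that build or cut the extracellular matrix were followed in pancreatic islets of 2 kinds of mice. The members are all genes whose platform symbol is a collagen chain, a laminin chain, an MMP, TIMP or ADAMTS gene, a lysyl oxidase, a fibulin or a fibrillin, or is one of Fn1, Postn, Sparc, Dcn, Lum, Bgn, Eln, Tnc, Nid1 and Nid2. This rule found 108 genes, read by 209 probe sets, among 18193 genes with a single symbol on an array of 45101 probe sets. The rule reads names and not values, but it was proposed with earlier results of these data known. The transgenic sample came from mice that overexpress miR-141/200c, and the control sample from the C57Bl6 strain, called Bl6_control in the genotype label. Both samples are islets of male mice aged 6 weeks, with beta-cells as the stated source. The prefix Ripmir in the sample title is read here, from general knowledge and not from any label, as the rat insulin promoter, which is active in beta cells. How many mice were pooled, and whether the controls were littermates, is unknown from the labels.

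The extracellular matrix of islets has a basement membrane and an interstitial part. Basement membranes are sheets of laminin trimers and type IV collagen joined by nidogens, and mouse islet cells rest on those laid down by the capillary endothelium. Fibrillar collagens form the ropes of the capsule and the space between vessels, and are made mainly by fibroblasts, stellate cells and pericytes. Metalloproteinases (MMP and ADAMTS families) cleave these proteins, and the TIMP proteins inhibit the proteases.

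Members of the miR-200 family act through their seed, bases 2 to 8, which pairs with matching sites in messenger RNAs. The mature strands of both overexpressed microRNAs are shown because the transgene defines the comparison. Capitals mark the seed, and the sequences are those of RefSeq on GRCm38.p6, on the minus strand at chr6:124717917-124717938 and chr6:124718324-124718346.
miR-141-3p: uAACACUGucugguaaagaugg
miR-200c-3p: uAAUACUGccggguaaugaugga
Counted from 1 at the 5′ end, the seeds differ by 1 substitution, C4U from miR-141-3p to miR-200c-3p. Zeb1 and Zeb2, repressors of epithelial genes, are textbook targets of the family.

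Each group was a single array (n = 1), so replicate spread is unknown, no test was made, and higher and lower describe these 2 arrays. Differences are log2 RMA values with the transgene minus those without it, for the gene's probe set of highest mean. A gene counted as measured above background when either of its values reached 5.76, the median of all probe set values, which is called the floor. The size rule was 2-fold, a log2 difference of 1. Islet hormone genes read near the top of the scale on both arrays, with Ins2 at 14.95 with the transgene and 15.02 without it, and Gcg at 14.13 and 14.19. Acinar enzyme genes did so too, with Cela3b at 14.52 and 14.42, so both samples held exocrine RNA. All 24 probe sets for poly-A spikes gave more signal with the transgene, with a median difference of 1.51. The amounts of spike and sample RNA are not given, and the part of RNA input in the results was not tested.

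Of the 108 genes, 56 reached the floor, and the other 52 were below it on both arrays. Among the 56, the genes furthest apart were Col6a3, Col1a2 and Postn, the only 3 members at the floor that differed 2-fold. All 3 were higher in the transgenic sample. They make up 5.36% of the 56, where 2.51% of 12143 genes at the floor were 2-fold higher. No member was 2-fold lower, against 0.511% of all genes. At 1.5-fold, 13 members (23.2%) were higher and 0 lower, while 7.73% and 3.14% of all genes passed in those directions. The median difference of the 56 was 0.29, against 0.029 over all genes, and 42 of the 56 had a positive difference, against 54.2% of all genes. In whole-islet RNA, more cells of a type and more RNA per cell cannot be told apart.

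The floor bears on these counts, because 8 of the 56 reached it on 1 array only, 4 through the transgenic and 4 through the control value. With no floor, the median over all 108 members was 0.074, against 0.0094 over all 18193 genes. Of these members 66 had a positive (61.1%) and 42 a negative difference, against 51.3% positive over all genes. The 52 members below the floor had a median of -0.026, with 24 positive (46.2%) and 28 negative. Over all 6050 genes below the floor the median was -0.021, and 45.4% were positive. Most of the 52 members can show little but background. With the floor set on the mean of both arrays, 54 members had a median of 0.26.

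**Figure D1:**
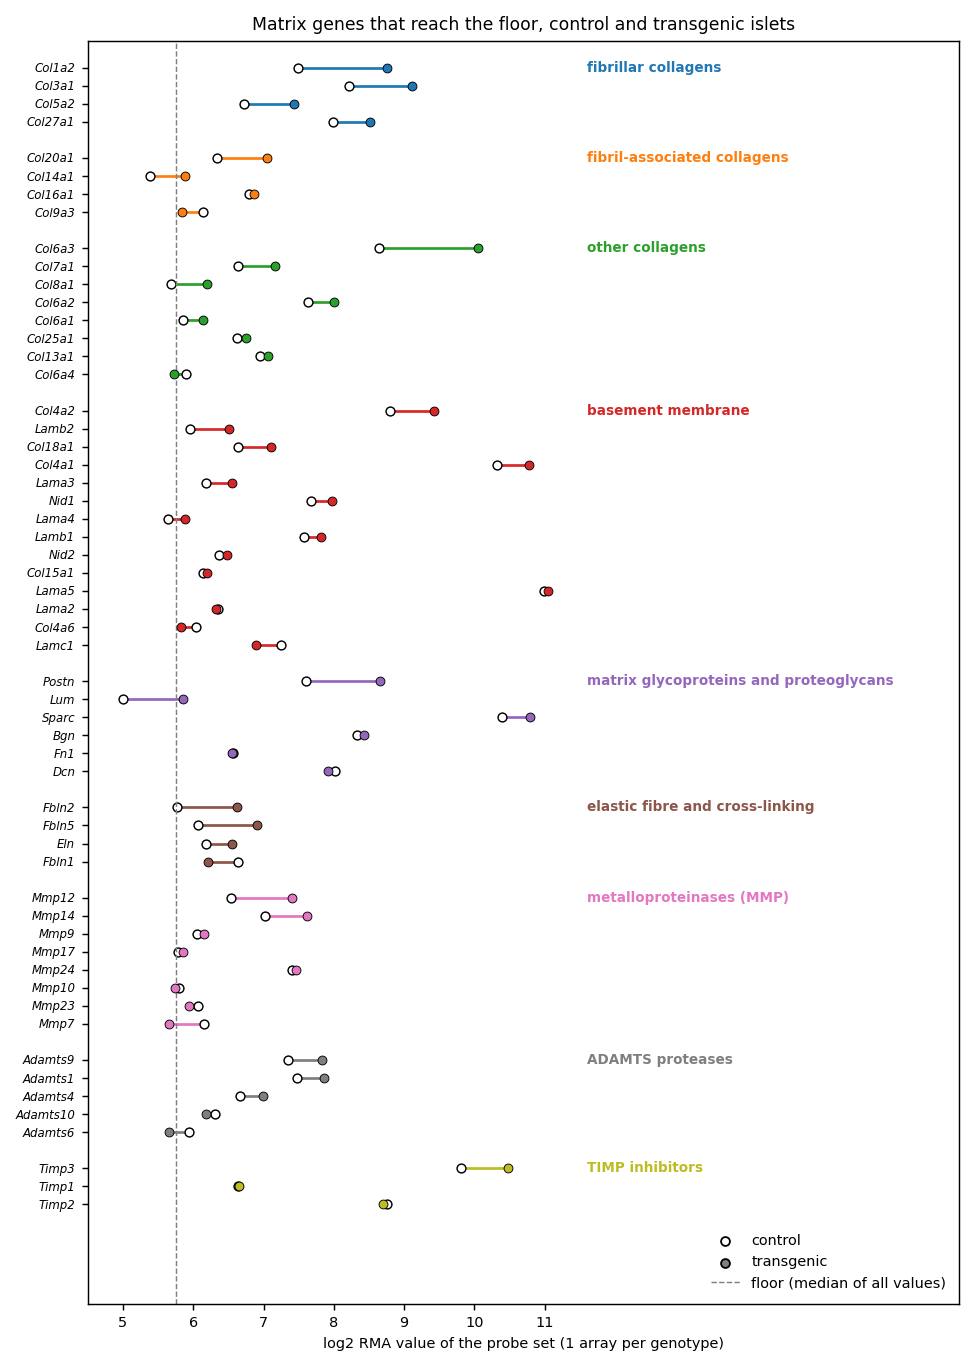
Log2 RMA values (horizontal axis) of the 56 matrix genes at the floor, 1 row per gene and grouped by role, with the control value as an open and the transgenic value as a filled circle. Col6a3, Col1a2 and Postn have the longest bars, and the dashed line is the floor of 5.76; levels of different genes cannot be compared, since each has its own probes.

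Fibrillar collagens, the rope-forming chains, differed furthest among the structural roles. Of 11 measured genes 4 reached the floor, all on both arrays, and all 4 were higher in the transgenic sample, with a median difference of 0.80. Col1a2, a chain of type I collagen, read 8.76 with the transgene and 7.49 without it. That is a log2 difference of 1.27, or 2.42-fold. A second probe set read 6.01 against 5.34, a difference of 0.67, but it reached the floor with the transgene only. The third was below the floor on both arrays and gave -0.043. Col3a1, the type III chain of reticular fibres, read 9.11 against 8.22, a difference of 0.89. Col5a2, a chain of type V collagen, which sits inside type I fibrils and limits their width, read 7.44 against 6.72, a difference of 0.72. Col27a1, a fibrillar chain best known from cartilage, read 8.51 against 7.99, and both of its probe sets lay close together at 0.52 and 0.48. All 4 thus lay above the median of all genes.

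Col1a1, the partner chain of Col1a2 in type I collagen, did not reach the floor on either array. It read 5.50 with the transgene and 5.19 without it, 0.31 apart, and the second probe set gave -0.18. The type I signal therefore rests on Col1a2 alone. The 7 fibrillar genes below the floor ranged from -0.22 to 0.89, and with them the median of all 11 was 0.52.

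Other collagens included the member with the largest difference among those at the floor. Col6a3, a chain of type VI collagen, which forms beaded filaments around cells, read 10.05 with the transgene and 8.64 without it, a difference of 1.41 or 2.66-fold. It was read by a single probe set. Its partner chains lay lower: Col6a2 read 8.01 against 7.64, a difference of 0.37 with its other probe set at 0.073, and Col6a1 read 6.14 against 5.86, a difference of 0.28. The chains of the same protein were thus higher by unequal amounts. Col7a1, the chain of the anchoring fibrils under epithelia, read 7.16 against 6.63, a difference of 0.53. Col8a1, a short-chain collagen of vessel walls, read 6.19 against 5.68, a difference of 0.51, and a second probe set gave 1.29. Both reached the floor with the transgene only, and the third probe set, below it on both arrays, gave -0.46, so little can be read from Col8a1. The 8 genes of this group at the floor had a median of 0.33, and 7 were positive.

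Fibril-associated collagens, which decorate the surface of fibrils, showed no common direction. Of 9 genes 4 reached the floor, with a median of 0.28 and a range from -0.30 to 0.72. Col20a1 read 7.05 against 6.33, a difference of 0.72, while 0.90 and -0.11 came from further probe sets at the floor. The probe set that gave 0.90 reached it with the transgene only. Col14a1 reached the floor in the transgenic sample only, at 5.88 against 5.39. Col16a1 stood at 6.87 against 6.80, a difference of 0.073, and Col9a3 at 5.84 against 6.13, a difference of -0.30. With the floor set on the mean, which drops Col14a1, the median was 0.073.

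Promoters are shown to let the leading interstitial genes be compared at the sequence level, those of the 3 members at the floor past 2-fold and of Col3a1. Each line gives the 120 bases before an annotated start, 5′ to 3′ on the gene's strand, from RefSeq on GRCm38.p6. Capitals mark any match, on either strand, to 4 motifs. These were CCAAT, the letters of the CCAAT box, and TATAAA, those of a TATA box. The others were GGGCGG, the letters of a GC box, and CACCTG, an E-box form that Zeb1 and Zeb2 can bind. The spans are chr1:90843972-90844091 on the minus strand for Col6a3, and on the plus strand chr6:4505498-4505617 for Col1a2, chr1:45311418-45311537 for Col3a1, and chr3:54359147-54359266 and chr3:54360987-54361106 for the 2 starts of Postn.
Col6a3: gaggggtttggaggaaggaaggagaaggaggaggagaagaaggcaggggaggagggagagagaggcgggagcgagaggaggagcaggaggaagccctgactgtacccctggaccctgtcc
Col1a2: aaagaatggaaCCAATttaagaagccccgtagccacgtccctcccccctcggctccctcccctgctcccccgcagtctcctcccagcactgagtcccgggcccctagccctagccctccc
Col3a1: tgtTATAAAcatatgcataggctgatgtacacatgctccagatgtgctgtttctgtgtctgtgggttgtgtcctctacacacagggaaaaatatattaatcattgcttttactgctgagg
Postn, first start: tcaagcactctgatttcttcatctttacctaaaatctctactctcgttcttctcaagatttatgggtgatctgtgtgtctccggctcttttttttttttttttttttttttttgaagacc
Postn, second start: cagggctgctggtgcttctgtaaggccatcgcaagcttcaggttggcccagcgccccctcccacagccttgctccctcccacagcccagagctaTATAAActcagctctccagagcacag

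Col1a2 held CCAAT 109 bases before its start. The second start of Postn held TATAAA 26 bases before it, where TATA boxes usually lie, and Col3a1 held TATAAA at 117 bases, further off. The 120 bases of Col6a3 held none of the 4 motifs, nor did those of the first start of Postn, so no motif was common to all 5 sequences. In the longer windows of the table, 250 bases before to 50 after a start, 71 of the 108 members had 82 promoters. CACCTG occurred in 17.1% of these, against 20.2% of all 32851 promoters. CCAAT occurred in 31.7% against 37.4%, TATAAA in 21.95% against 13.6%, and GGGCGG in 54.9% against 35.7%. In the 48 promoters of the 40 members at the floor that had one, the shares were 16.7% for CACCTG, 35.4% for CCAAT, 14.6% for TATAAA and 60.4% for GGGCGG. For TATAAA the share at the floor was thus close to that of all promoters. A match is a run of letters and not a shown binding site, and promoters of 1 gene can overlap.

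Basement membrane genes were higher by less. Of 20 measured genes 14 reached the floor, 11 of them with a positive difference (78.6%, against 54.2% of all genes), and the median was 0.24. None differed 2-fold, where 2.51% of all genes were 2-fold higher. Col4a2 alone was 1.5-fold higher (7.14% of the 14), a share close to the 7.73% of all genes. Col4a1 and Col4a2 encode the chains of the main type IV collagen network. Col4a1 read 10.78 with the transgene and 10.32 without it, a difference of 0.46 with its other probe set at 0.24. Col4a2 read 9.43 against 8.80, a difference of 0.63. The pair differed in the same direction and by similar amounts. Col18a1, a collagen of vascular basement membranes and the source of endostatin, read 7.11 against 6.63, and its probe sets gave 0.48 and 0.78.

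Laminin chains differed from one another. Lamb2, the beta 2 chain, read 6.51 with the transgene and 5.95 without it, a difference of 0.56. Lamb1, the beta 1 chain, read 7.81 against 7.58, a difference of 0.23. A second probe set, at the floor with the transgene only, gave 0.48. Lama5, the alpha 5 chain of vascular and epithelial laminins, read 11.04 against 10.99, a difference of 0.055. Lamc1, the gamma 1 chain shared by most laminins, read 6.89 against 7.25, a difference of -0.36, the lowest of the group. Its second probe set, at the floor with the transgene only, gave 0.65, so no direction is stated for Lamc1. Nid1, which links laminin to type IV collagen, read 7.97 against 7.68, a difference of 0.29, and a second probe set, at the floor without the transgene only, gave -0.62. The 6 basement membrane genes below the floor ranged from -0.21 to 0.25, and the median of all 20 was 0.090.

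Among matrix glycoproteins and proteoglycans, Postn and Lum were the furthest apart. Of 7 genes 6 reached the floor, with a median of 0.25. Postn encodes periostin, a protein of remodelling matrix that binds collagen and integrins. It read 8.66 with the transgene and 7.60 without it, a difference of 1.05 or 2.08-fold, on its single probe set. Lum encodes lumican, a leucine-rich proteoglycan that spaces collagen fibrils, and read 5.86 against 5.0, a difference of 0.85, with the control value below the floor. Sparc, a collagen-binding protein needed for normal fibril and basement membrane assembly, read 10.79 against 10.39, a difference of 0.40, while further probe sets gave 0.28 and -0.13. Bgn and Dcn, the proteoglycans biglycan and decorin, stood at 0.11 and -0.096. Bgn read 8.43 against 8.33 and Dcn 7.92 against 8.02. Fn1, fibronectin, read 6.55 against 6.57, a difference of -0.017. The fibroblast products of this group thus did not differ by a common amount.

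Elastic fibre genes were split. Of 10 genes 4 reached the floor, with a median of 0.60. Fbln2 and Fbln5 are fibulins, which tie elastin to microfibrils and basement membranes. Fbln2 read 6.63 with the transgene and 5.77 without it, a difference of 0.85, with the control value at the floor. Fbln5 read 6.91 against 6.07, a difference of 0.84. Eln, elastin itself, read 6.55 against 6.19, a difference of 0.36. Fbln1, another fibulin, lay on the other side at 6.22 against 6.64, a difference of -0.42. Lox, the enzyme that cross-links collagen and elastin, was below the floor at 4.64 and 4.60. Below the floor, Fbln7 read 4.94 against 3.64, a difference of 1.30 that background limits. Fbln7 was named after its values were seen.

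**Figure D2:**
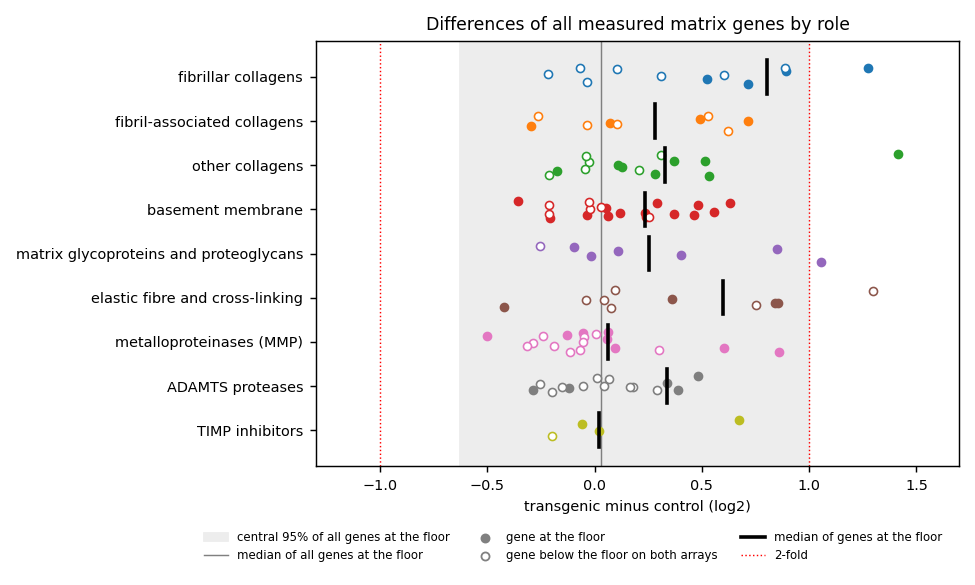
Transgenic minus control log2 difference (horizontal axis) of all 108 matrix genes by role, filled where the gene reached the floor and open where it was below it on both arrays. Black bars are medians of the filled points, 0.80 for fibrillar collagens and 0.24 for basement membrane genes, and the grey band is the central 95% of all genes at the floor (-0.63 to 1.0).

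Matrix proteases at the floor differed in both directions. Of 33 MMP and ADAMTS genes 13 reached the floor, 8 positive and 5 negative, with a median of 0.061. Of the 13, 10 reached it on both arrays and 3 through the control value only, which by itself makes the differences of those 3 negative. No protease reached it through the transgenic value only. Over all 33 genes with no floor the median was -0.049, and with the floor set on the mean of both arrays it was 0.061. None differed 2-fold, and 2 of the 13 were 1.5-fold higher (15.4%, against 7.73% of all genes). The positive share was 61.5%, against 54.2% of all genes. Mmp12, the elastase of macrophages, read 7.40 with the transgene and 6.54 without it, a difference of 0.86 on its single probe set. Mmp14, a membrane-anchored collagenase that activates pro-Mmp2, read 7.62 against 7.02, a difference of 0.60, while further probe sets at the floor gave 0.14 and 0.060. Its substrate gene Mmp2, gelatinase A, was below the floor on both arrays, at 5.46 and 5.75. Mmp9, gelatinase B, read 6.15 against 6.06, a difference of 0.095. Mmp7, matrilysin of epithelia, had the lowest difference of all 108 members, -0.50, at 5.65 against 6.15, with the transgenic value below the floor. Mmp23 gave -0.13 on one probe set and 0.55 on the other, which reached the floor with the transgene only.

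The ADAMTS genes at the floor ranged from -0.29 to 0.48. Adamts1, Adamts4 and Adamts9 encode proteases that cut the large proteoglycans aggrecan and versican. Adamts9 read 7.83 with the transgene and 7.35 without it, a difference of 0.48, but a second probe set, at the floor without the transgene only, gave -0.57. Adamts1 read 7.86 against 7.47, a difference of 0.39. Adamts4 read 7.00 against 6.66, and its probe sets gave 0.34 and 0.16. Adamts6, linked to fibrillin microfibrils, read 5.65 against 5.94, a difference of -0.29, with the transgenic value below the floor. The 20 proteases below the floor ranged from -0.32 to 0.30.

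The TIMP inhibitors were not shifted as a group, with 3 of 4 at the floor and a median of 0.019. Timp3, the inhibitor that stays bound to the matrix, read 10.47 with the transgene and 9.80 without it, a difference of 0.67. Further probe sets at the floor gave 0.21 and -0.22, so its direction depends on the probe set. Timp1 read 6.65 against 6.63 and Timp2 8.70 against 8.76, differences of 0.019 and -0.060. The other probe sets of Timp2 at the floor ran from -0.039 to 0.23.

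Set side by side, the medians at the floor were 0.80 for fibrillar collagens, 0.24 for the basement membrane and 0.061 for proteases. Fibrillar collagens lay 0.57 above the basement membrane and 0.74 above the proteases. The protease median includes 3 of 13 genes that reached the floor through the control value only. In the basement membrane, 1 of 14 did so through the transgenic value only. Over all measured genes of each role, with no floor, these gaps were 0.43 and 0.57. The order of fibrillar collagens above the other groups therefore held with and without a floor, although only 4 fibrillar genes stand behind the first value. The basement membrane lay 0.17 above the proteases at the floor, but 0.053 below them when probe sets were averaged and 0.15 below them with a floor at the 75th percentile. Its order against the proteases was not settled.

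Probe sets of a gene differ in where they bind, and read the same RNA, so they are no replicates. Among genes at the floor, the members had 26 further probe sets at the floor, and 17 of these had the sign of the one used (65.4%). Over all genes it was 66.4%. The median gap between a further probe set and the one used was 0.30 for members and 0.19 for all genes. Differences of this size between members carry little weight, and Col6a3 and Postn, with 1 probe set each, have no such check.

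**Figure D3:**
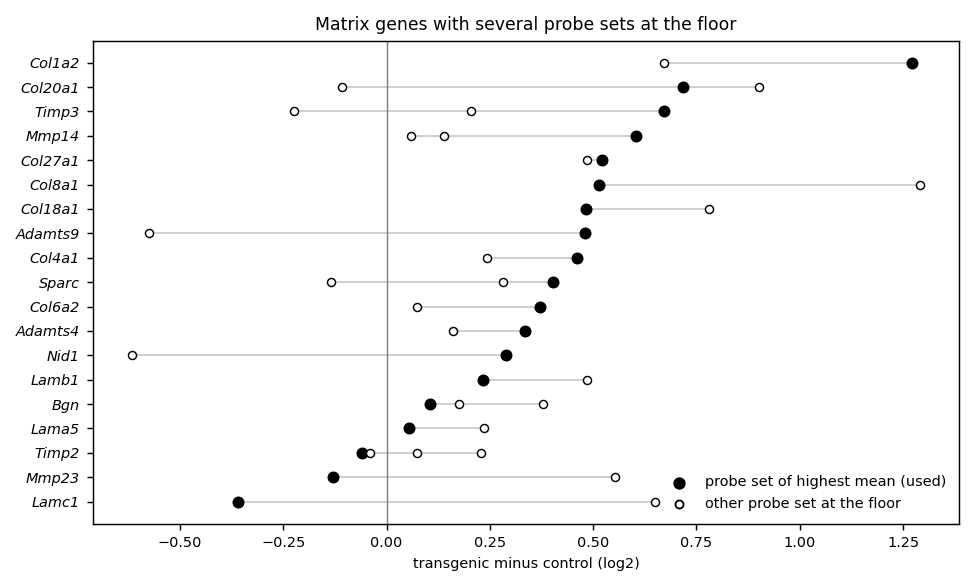
Transgenic minus control log2 difference (horizontal axis) of each probe set at the floor, for matrix genes with several such probe sets; filled circles are the probe set with the highest mean, open circles the others. Col1a2, Col27a1 and Col4a1 lie wholly on the positive side, while probe sets of Timp3, Adamts9, Nid1 and Lamc1 lie on both sides of 0.

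Enzymes and chaperones that make collagen included a larger difference than any member. Of 19 such genes at the floor 14 were positive, 1 was 2-fold higher and none 2-fold lower, with a median of 0.31. Plod2, the lysyl hydroxylase that sets the type of collagen cross-link, read 7.33 with the transgene and 5.55 without it, a difference of 1.78, and its second probe set gave 2.57. The control values of both lay below the floor, so background limits these differences. P3h2, a prolyl hydroxylase of type IV collagen, stood at 0.73, and Pcolce, which speeds the trimming of procollagen, at 0.66. Pcolce reached the floor with the transgene only, at 6.10 against 5.45, and its other probe set gave 0.017 below the floor. The remaining 5 of the 19 genes were negative. Of all genes at the floor, 54.2% were positive, 2.51% were 2-fold higher and 0.511% 2-fold lower.

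Receptors and signals that act on the matrix differed less. Over all genes at the floor the median was 0.029 and 54.2% were positive, with 2.51% 2-fold higher and 0.511% 2-fold lower. Of 18 matrix receptors at the floor 13 were positive and none passed 2-fold in either direction, with a median of 0.17. The syndecan Sdc1 stood at 0.65, the collagen-binding integrin Itga1 at 0.64 and the shared integrin chain Itgb1 at 0.50. Sdc1 and Itga1 reached the floor with the transgene only, with control values of 5.69 and 5.48. Of 16 genes of TGF-beta signalling, the main inducer of fibrillar collagens, 10 were positive and none passed 2-fold, with a median of 0.17. The receptor Tgfbr2 stood at 0.57, the target Ccn2 at 0.45 and Tgfbi, a matrix protein induced by the pathway, at 0.42. The other 6 of these 16 genes were negative, with Smad6 lowest at -0.41. Other matrix proteins had a median of 0.12 over 16 genes, 10 of them positive. Matn2, a filament-forming matrilin, read 8.86 against 6.81, and its probe sets gave 2.05 and 2.12. Emilin1, a glycoprotein of elastic fibres, read 7.79 against 9.05, a difference of -1.26, with its second probe set at -0.66. Mgp, an inhibitor of matrix calcification, stood at 0.70. Of 16 other matrix proteases and their inhibitors 13 were positive, with a median of 0.26 and none past 2-fold. Cathepsin S (Ctss, which is also on the macrophage list) stood at 0.83, the sheddase Adam10 at 0.63 and Ctsb at 0.55.

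Markers of stellate cells, fibroblasts and pericytes were mostly higher too, while endothelial markers were close to all genes. Of 20 markers of stellate cells, fibroblasts and pericytes, none of them a member, 12 reached the floor. Of these 10 were positive, where 54.2% of all genes were, and 2 were negative, Pdpn at -0.25 and Thy1 at -0.19. Their median was 0.37, and their mean log2 value was 8.62 with the transgene and 8.25 without it. The pericyte gene Rgs5 stood at 0.95, Acta2, the actin of smooth muscle and activated stellate cells, at 0.81 and Pdgfrb at 0.74. Pdgfra, a defining fibroblast gene, was below the floor at 4.59 and 4.19, and so were Dpt, Fap, Lrat and Tcf21. Macrophage markers had a median of 0.83, with 15 of 16 at the floor positive and mean log2 values of 8.94 and 8.22. Mpeg1 stood at 1.25, C1qb at 1.15 and C1qc at 1.14, while Itgam, Cd163, Cx3cr1 and Mrc1 were below the floor. Endothelial markers had a median of 0.072, against 0.029 over all genes, with 9 of 13 positive and means of 8.17 and 8.06. Pecam1 stood at 0.88, Erg at -0.61 and Tek at 0.56. Beta cell markers had a median of 0.014 over 10 genes, 5 positive and 5 negative. Ucn3, a hormone of mature beta cells, stood at -0.81, Abcc8, a subunit of their potassium channel, at 0.49 and the prohormone convertase Pcsk1 at 0.48. Acinar markers had a median of 0.12 with 11 of 14 positive, although the acinar protease Ctrc stood at -2.23. Ductal markers had a median of 0.17 with 8 of 9 positive, and Prom1 stood furthest at 1.11. Schwann cell markers had a median of 0.11 with 2 of 4 positive. Among them Cdh19 stood at 1.63, with a control value below the floor. The part of these cell markers in the collagen and protease values was not tested.

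**Figure D4:**
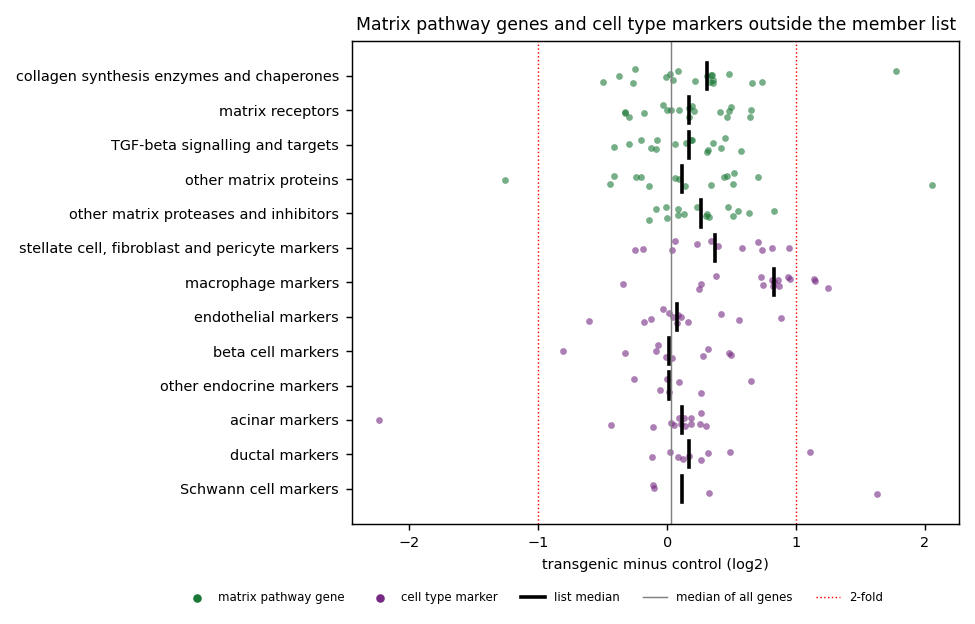
Transgenic minus control log2 difference (horizontal axis) of genes at the floor in 5 lists of the matrix pathway (green) and 8 lists of cell type markers (purple), with each list's median as a black bar. The macrophage (0.83) and stellate cell (0.37) medians lie furthest to the right, and those of beta cells (0.014) and other endocrine cells (0.017) lie near the median of all genes.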

How the data were processed

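The authors deposited 1 log2 value for each probe set of 2 Affymetrix arrays, computed with RMA in Affymetrix Expression Console, per the submitters' processing notes. Its version is not given in the sources used here, and the same holds for any further arrays in the normalization. RMA corrects background, sets arrays to a common distribution and gives no detection call. The sorted values of both arrays differed by at most 0.10.

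Of 45101 probe sets 64 were array controls and 34945 had 1 symbol in the platform table. Symbols of 34741 matched the GRCm38.p6 gene table by identifier, and 0 changed. Each gene took the probe set of highest mean over both arrays. Members were put into 9 role groups, and 46 were named: those past 2-fold, the 4 furthest of each role, and 24 chosen by name. Of each other list up to 3 genes of largest difference were named, and some further genes to show limits or levels. Members and lists were chosen with earlier results of these data known. The counting code was checked on simulated data, with planted differences past the size rule and little noise. That check says nothing about how reliable the differences in these data are. Python 3.11.15, numpy 2.4.6, pandas 2.3.3, statsmodels 0.14.6 and matplotlib 3.10.9 were used. Alternatives tried are given in the closing section. Sequences are from RefSeq tables.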

Additional observations from a re-analysis of the deposited data

How the results depend on the processing

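With 1 array per genotype there is no replicate to leave out. No paired analysis was possible because each group has 1 sample and the labels give no replicate numbers. Values without a test were said to move when they shifted by more than 0.19, the median gap between probe sets of a gene, and counts when they shifted by more than 1.5 times. The count of members 2-fold higher was 2 to 4 under all alternatives other than the 1.5-fold rule, which gave 13, and no member was 2-fold lower under any. The counts over all genes moved with a floor at the 75th percentile (168 higher, 39 lower) and with the 1.5-fold rule (939 and 381). The lower count also moved with averaged probe sets (38) and with each probe set by itself (161). The median over all members moved with no floor (0.074). That of fibrillar collagens moved with averaged probe sets (0.60) and no floor (0.52), and that of proteases with the floor at the 75th percentile (0.43), which leaves fewer genes. Under these 2 settings, averaged probe sets and the higher floor, fibrillar collagens lay above proteases by 0.39 and 0.45, and the basement membrane lay at -0.053 and -0.15 against proteases, the opposite direction to the main value of 0.17. Apart from the settings' own construction the cause was not tested. The gap between fibrillar collagens and the basement membrane ran from 0.41 to 0.64. The other settings were leaving out _s_at, _x_at and _a_at probe sets, a second quantile normalization, a lowess trend (span 0.3), updated symbols, the mean, leaving out the furthest gene, leaving out genes matched by letters only (none had a probe set), and, chosen after seeing the data, a floor on the mean. Of 300 values of single named members 12 moved and 4 changed sign. Averaged probe sets gave 9 of the moved values, and only 31 of the 43 named members at the floor remained there. The other 3 moved without the 3 classes. Col1a2 fell under 2-fold in both settings, to 0.63 with averaged probe sets and 0.67 without the 3 classes. Settings that change only the floor or the symbols reuse the same values, so they could not move a member. Lamc1 (0.14) and Mmp23 (0.21) changed sign with averaged probe sets. Col20a1 (-0.11) did so without the 3 classes and Timp1 (-0.0060) with quantile normalization. The floor of 5.76 limits what the 52 members below it can show.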

Other observations

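The type IV collagen genes lie in head-to-head pairs in the mouse genome. In the RefSeq table the nearest opposed starts of Col4a1 and Col4a2 lay 21 bases apart. Each start lay within the other gene, so the 5′ ends overlapped. The differences of Col4a1 and Col4a2 were 0.46 and 0.63. For Col4a5 and Col4a6 the nearest starts lay 1343 bases apart, and the differences were 0.25, below the floor on both arrays, and -0.21, at the floor. Col4a3 and Col4a4, chains of the network of the kidney filter, were below the floor on both arrays and had differences of -0.21 each. The pairs were set side by side after their values were seen.

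The lysyl oxidase Loxl2 had no probe set with a single symbol and was not counted as a member. The 2 probe sets that name it together with the predicted gene Gm21451 read 7.48 with the transgene against 7.79 without it, a difference of -0.32, and 5.23 against 5.34, a difference of -0.11.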
